A study of Mus musculus with 4 samples.

Results

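The transcripts described here encode the cyclins, the cyclin-dependent kinases (CDKs), the proteins that inhibit, license or modify those kinases, and the E2F and Rb families that the kinases act on. The 46 members were taken from the count files by gene symbol, and all 46 were among the 52636 Ensembl genes counted in each library. RNA was sequenced from 2 control and 2 *Eya1*cKO libraries, each made from 5000 FACS-sorted tdTomato+ cells of embryonic mouse kidneys at E12.5-E12.75, 48 h after tamoxifen was first given. Control embryos carried *Eya1CreER* and the tdTomato reporter, and *Eya1*cKO embryos carried the same alleles together with *Eya1* fl/fl, so that both genotypes had the CreER allele, the reporter and tamoxifen. CreER was driven from the *Eya1* locus, so the reporter marks cells that expressed *Eya1* at the time of labelling and their progeny. The genetic background was mixed. Kidneys of several embryos were frozen as suspensions and combined before sorting, and a genotype was represented by separate portions of cells sorted at the same time. P-values accordingly measure the spread between such portions, which may be technical.

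A cell enters the cycle when D-type cyclins activate Cdk4 and Cdk6, which phosphorylate Rb and its relatives and release the E2F transcription factors. E2F factors with a DP partner then drive genes for DNA synthesis and those for E-type cyclins. A-type and B-type cyclins with Cdk2 and Cdk1 carry the cell through S phase into mitosis. INK4 and Kip proteins hold the kinases back, Wee1 adds an inhibitory phosphate, and Cdc25 phosphatases remove it. In the embryonic kidney, nephron progenitor cells (NPCs) divide to renew themselves while part of the population differentiates.

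The gene counts per library ran from 17457452 to 37999342, with both control libraries deeper than both *Eya1*cKO libraries. Reads that did not align were 6.32% and 6.69% of the reads recorded in the controls and 12.9% and 12.7% in *Eya1*cKO, and the part of this difference in the results was not tested. *Eya1*, the targeted gene, had 6612 and 6420 reads in the controls against 377 and 219 in *Eya1*cKO, a mean of 8.08% of the control level. Values of a genotype are given throughout with library 1 before library 2. The defining NPC marker *Six2* was present in the controls and low in *Eya1*cKO, and the NPC list of 6 genes included *Eya1* itself, whose fall the knockout fixes. The other 5 NPC markers also fell, their summed level going from 385.5-402.7 CPM (counts scaled to a common library total) in the controls to 26.9-51.9 CPM in *Eya1*cKO. Markers of other cell types moved at the same time. The 6 sympathoadrenal markers summed to 4.61-8.39 CPM in the controls and 506-534 CPM in *Eya1*cKO, and the 6 adrenal cortex markers to 11.4-18.7 and 653-677 CPM. The 6 renal stroma markers summed to 2559.8-2581.7 CPM in the controls and 5451.4-5670.8 CPM in *Eya1*cKO, the 6 podocyte markers to 849-874 and 2567.8-2648.2 CPM, and the 6 endothelial markers to 516-526 and 878-924 CPM, while the 6 ureteric bud markers went from 161-165 to 68.9-95.3 CPM. Of these lists, 6 of 6 sympathoadrenal, 6 of 6 adrenal cortex, 6 of 6 endothelial, 5 of 6 podocyte and 4 of 6 stroma genes rose, and 1 stroma and 2 ureteric bud genes fell. Macrophage markers summed to 109-114 CPM in the controls and 110-131 CPM in *Eya1*cKO with none of the 6 past the threshold in edgeR (1 with an unadjusted *P* under 0.05). Erythroid markers were at or near 0, with *Hba-a1*, *Hba-a2* and *Hbb-bs* listed at 0 in all libraries. The part of these cell types in the levels below was not tested, and in bulk RNA fewer cells of a type and less RNA per cell cannot be told apart.

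Of the 46 members, 42 passed edgeR's filter on low counts. In edgeR's quasi-likelihood test over all 19041 genes that passed, with Benjamini-Hochberg adjustment, 12 members fell in *Eya1*cKO and 1 rose. Of all genes tested, 9.56% passed. The members that fell were 28.6% of the 42 tested, against 4.41% of all genes tested that fell, and the member that rose was 2.38%, against 5.15%. The median log2 fold change (*Eya1*cKO over control) was -0.31 over the tested members and 0.016 over all genes tested. Both *Eya1*cKO libraries lay below both controls for 25 of the tested members, above them for 5 and among them for 12, where 30.0% of all genes tested lay below and 25.3% above. The members that fell were *Ccnd1*, *Ccnd2*, *Ccne1*, *Ccne2*, *Cdk4*, *Cdc25a*, *Cdc25b*, *Wee1*, *E2f2*, *E2f3*, *E2f8* and *Tfdp1*, and the member that rose was *Ccng1*. *Ccnd1* and *Cdc25a* kept an adjusted *P* under 0.05 under each of the 8 alternatives run on all 4 libraries. With the replicate number as a block, only these 2 passed, where 1.38% of all genes fell and 1.88% rose. When control 1 or control 2 was left out, no member passed in edgeR, although 13 had an unadjusted *P* under 0.05 in each case, and of all genes 0.0378% and 0.0328% fell and 0.0709% and 0.0749% rose. Leaving out *Eya1*cKO 1 or *Eya1*cKO 2 gave 22 members that fell in each case, where 14.8% and 15.5% of all genes fell and 18.7% and 19.8% rose. The members that fell numbered 12 with RLE factors (4.20% of all genes), 10 with library totals alone (3.80%), 9 without the low-count filter (1.63%), 14 with at least 10 counts asked of every library (7.64%), 15 with DESeq2 (6.36%), 10 with the legacy method (2.70%) and 10 after thinning to the smallest total (3.29%). In the same order, 5.22%, 5.54%, 1.76%, 7.84%, 8%, 3.05% and 3.48% of all genes rose, and in each of these settings *Ccng1* was the only member that rose or none did.

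**Figure D1:**
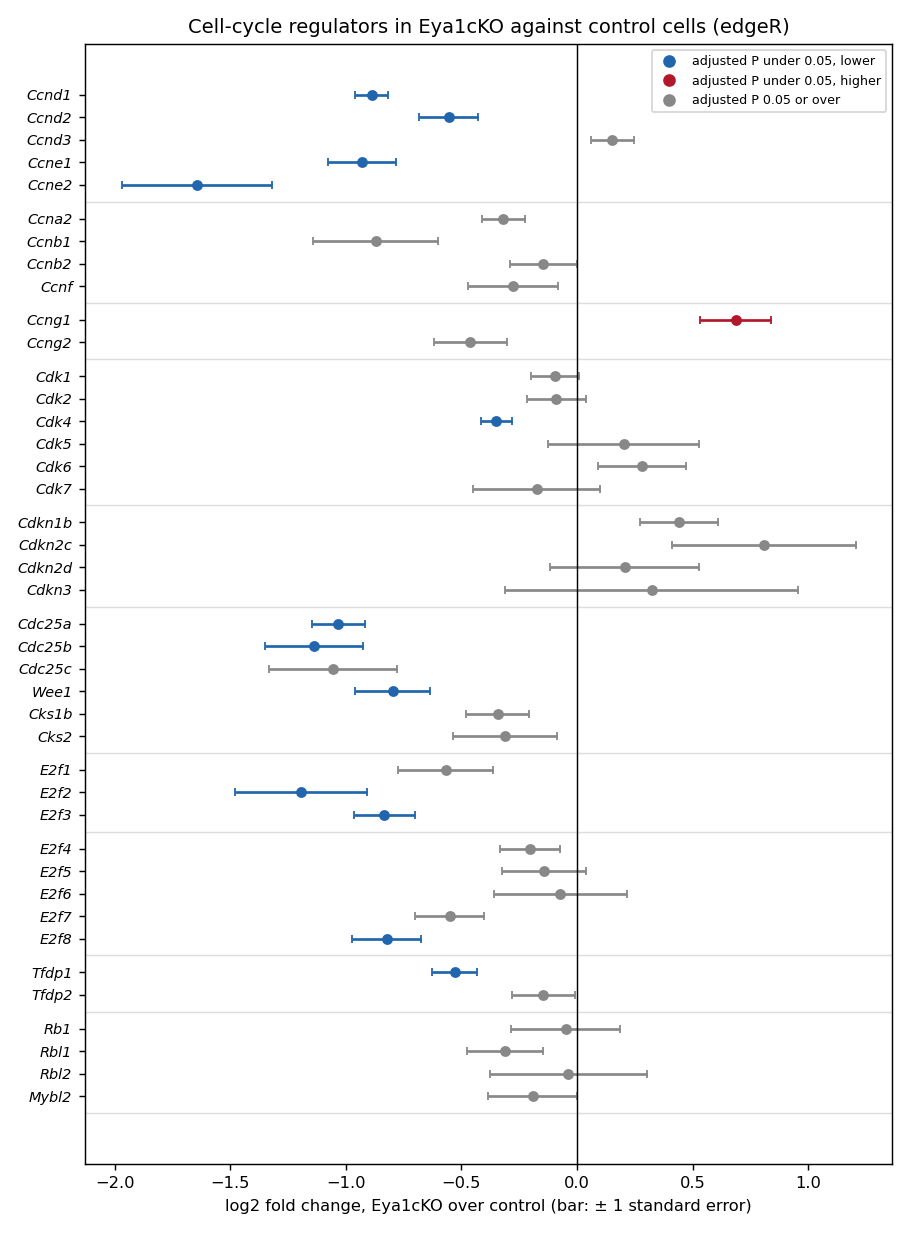
Log2 fold change (*Eya1*cKO over control, horizontal axis) of 41 tested members with 1 standard error either side, grouped by role and coloured by the edgeR call. *Ccno*, with no read in *Eya1*cKO, is not drawn. Most filled blue points lie among the G1 cyclins, the Cdc25 phosphatases with *Wee1*, and the E2F factors, whereas the CDKs other than *Cdk4* lie between -0.17 and 0.28.

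Member promoters were searched for elements through which cell-cycle genes are known to be controlled. RefSeq promoters (GRCm38.p6, 250 bases before to 50 after the start) were at hand for 36 members, 8 of them with 2 starts. For 39 of these 44 promoters the bases after the start were found in a GENCODE M21 transcript of the gene, and for 1 promoter each of *Ccnb2*, *Cdk2*, *E2f2*, *Mybl2* and *Skp2* they were not. The E2F motif was searched as TTTCCCGC, TTTCGCGC, TTTGCCGC or TTTGGCGC on either strand, and the cell-cycle genes homology region (CHR), bound by the complexes that hold mitotic genes, as TTTGAA on either strand. A match to the E2F motif cannot overlap a match to the CHR motif. CCAAT was searched on either strand as well, and its windows are not shown. At least 1 promoter of 9 of the 36 members (25.0%) held the E2F motif, against 2.60% of the 27025 genes in the same table. The CHR motif was held by 11 members (30.6%), against 20.2%, and CCAAT by 22 members (61.1%), against 41.1%. Of the 8 members with a promoter that fell, 4 held the E2F motif, 3 the CHR motif and 5 CCAAT. Of the 23 that were tested but not called, 4, 6 and 13 held them. *Ccnd1*, *Ccnd2*, *Ccne2* and *Wee1*, which also fell, had no promoter to search. The matches are descriptions of these windows and were not tested for binding. Their part in the changes of level was not tested either. The E2F windows of the members that fell are shown first, then those of members that were not called. CHR windows close to the start follow for 4 members that were not called. CHR matches also lay close to a start in *E2f2* (-31 to -26), *E2f3* (-23 to -18) and *E2f8* (-20 to -15), which fell, and are not shown. The E2F window of *Cdkn2a*, which was not tested, is not shown. The windows shown for *Ccnb2*, *Cdk2* and *E2f2* come from starts not found in GENCODE. That of *E2f2*, after its RefSeq start, lies upstream of the GENCODE start of the gene. Each is written 5′ to 3′ on the strand of the gene with the motif in capitals.
*Cdc25a* E2F, chr9:109875502-109875529, plus strand: gtgaattccgTTTGGCGCcaactaggaa
*E2f2* E2F, chr4:136172296-136172323, plus strand: aatttggcggcatatagTTTGGCGCtaa
*E2f3* E2F, chr13:29986057-29986084, minus strand: tgaaaagccgGCGGGAAAtctgagtttc
*Tfdp1* E2F, chr8:13338698-13338725, plus strand: ggcgccgaagGCGCGAAAaggcgcgcag
*Cdk1* E2F, chr10:69353026-69353053, minus strand: ttccgctcccTTTCGCGCtctgcgctcc
*Cdk2* E2F, chr10:128705174-128705201, minus strand: accaggaactGCGGGAAAgttgtgcagc
*E2f7* E2F, chr10:110745231-110745258, plus strand: ccgcgtccccGCGGGAAAcgctcccgcg
*Rbl1* E2F, chr2:157204535-157204562, minus strand: agaaggcgatTTTCGCGCgctttgtcgc
*Cdk1* CHR, chr10:69352911-69352938, minus strand: accgcggcgagTTTGAAactgctggcac
*Ccnb2* CHR, chr9:70421534-70421561, minus strand: gcggcgcggtaTTTGAAtcgcggaccgg
*Ccnf* CHR, chr17:24251407-24251434, minus strand: ctcccggcgcgTTTGAAaacggggcggg
*Cks1b* CHR, chr3:89418292-89418319, minus strand: cgggcggtgtgTTTGAAagcgaggccaa

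**Figure D2:**
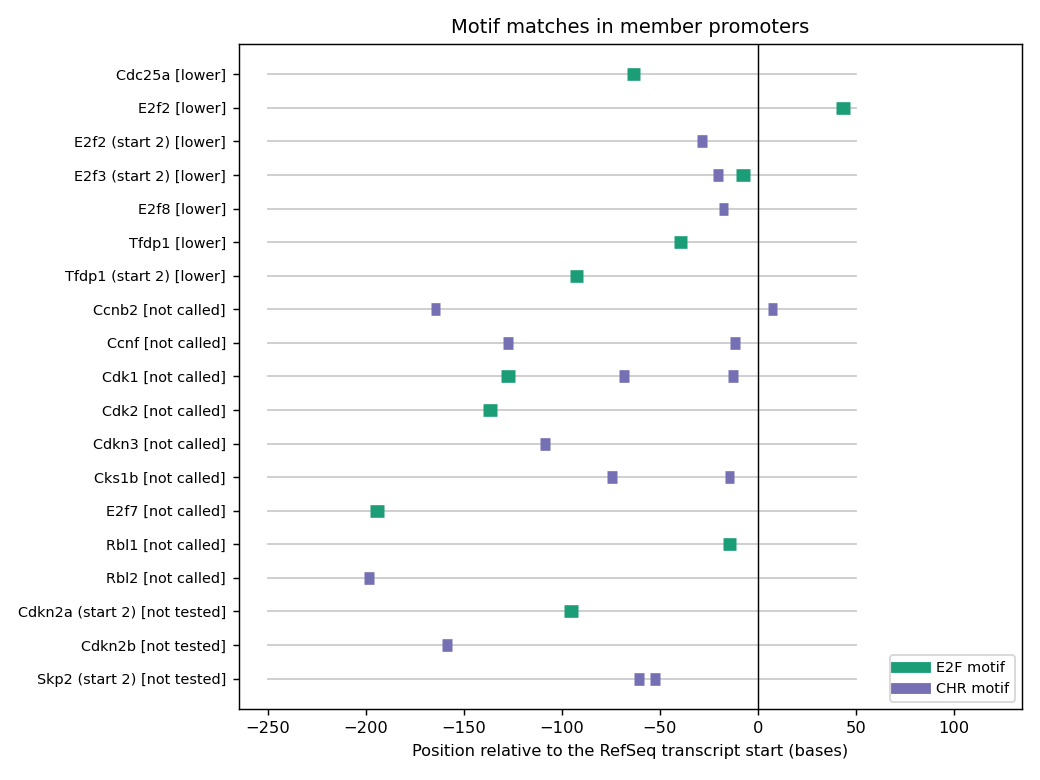
Positions of E2F (green) and CHR (purple) motif matches in the promoters of members that held at least 1 of them, in bases from the RefSeq transcript start, with the edgeR call of the gene in brackets. Where a gene has 2 starts, "start 2" is the one with the higher coordinate. Motifs of both kinds occur in members that fell and in members that were not called.

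Among the G1 cyclins, 4 of 5 fell. *Ccnd1* encodes the D-type cyclin that links mitogens to the cycle, and it lies on chromosome 7 from 144929931 to 144939925 of GRCm38. It had 16378 and 17501 reads in the controls against 5788 and 4370 in *Eya1*cKO. This was 469 and 467 CPM against 256 and 249 CPM, which is -0.89 ± 0.07 on the log2 scale (± SE, edgeR adjusted *P* = 0.0013). The groups stood well apart, with little spread between libraries of a genotype. *Ccnd2*, a further D-type cyclin, on chromosome 6 from 127125162 to 127152193, was at 518 and 546 CPM in the controls against 412 and 307 CPM in *Eya1*cKO, which is -0.56 ± 0.13 on the log2 scale (± SE, edgeR adjusted *P* = 0.041). These levels came from 18072 and 20436 reads in the controls and 9318 and 5383 in *Eya1*cKO. Its fall was uneven between the *Eya1*cKO libraries, and it did not pass with library totals alone (edgeR adjusted *P* = 0.055), without the low-count filter, with the legacy method or after thinning, where its adjusted *P* reached 0.086. *Ccnd3*, the remaining D-type cyclin, had 145 and 144 CPM in the controls against 159 and 162 CPM in *Eya1*cKO, above both controls, which is 0.15 ± 0.09 on the log2 scale (± SE, edgeR adjusted *P* = 0.33). Within each library the reads on *Ccnd1* were 3.24 and 3.24 times those on *Ccnd3* in the controls and 1.61 and 1.53 times in *Eya1*cKO, a ratio that does not depend on the scaling of libraries. As CPM per kilobase of exon, *Ccnd1* made up 58.2% and 57.1% of the D-type cyclin level in the controls and 46.8% and 50.9% in *Eya1*cKO, and *Ccnd3* 9.63% and 9.47% against 15.6% and 17.8%. In the GENCODE M21 annotation 23.4% of the exonic length of *Ccnd1* and 7.86% of that of *Ccnd2* lies opposite other genes, and because the strand setting of the counting is not stated, reads from the 2 strands cannot be told apart there.

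E-type cyclins partner Cdk2 at the entry to S phase, and both fell. *Ccne1*, at 38097984 to 38107534 of chromosome 7, had 3148 and 3500 reads in the controls and 1018 and 912 in *Eya1*cKO. These were 90.1 and 93.5 CPM against 45.05 and 52.0 CPM, a mean of 52.8% of the control level. Its log2 fold change was -0.93 ± 0.15 (± SE, edgeR adjusted *P* = 0.012). *Ccne2*, at 11191351 to 11204779 of chromosome 4, had 838 and 1063 reads in the controls against 191 and 146 in *Eya1*cKO, or 24.0 and 28.4 CPM against 8.45 and 8.32 CPM. This was the largest fall among the members that passed, at -1.64 ± 0.33 (± SE, edgeR adjusted *P* = 0.026), leaving 32.0% of the control level in CPM. The groups did not overlap for either gene, and the ratio of *Ccne2* to *Ccne1* reads, 0.266 and 0.304 in the controls, was 0.188 and 0.160 in *Eya1*cKO. For *Ccne2*, 17.4% of the exonic length lies opposite *Ints8*.

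**Figure D3:**
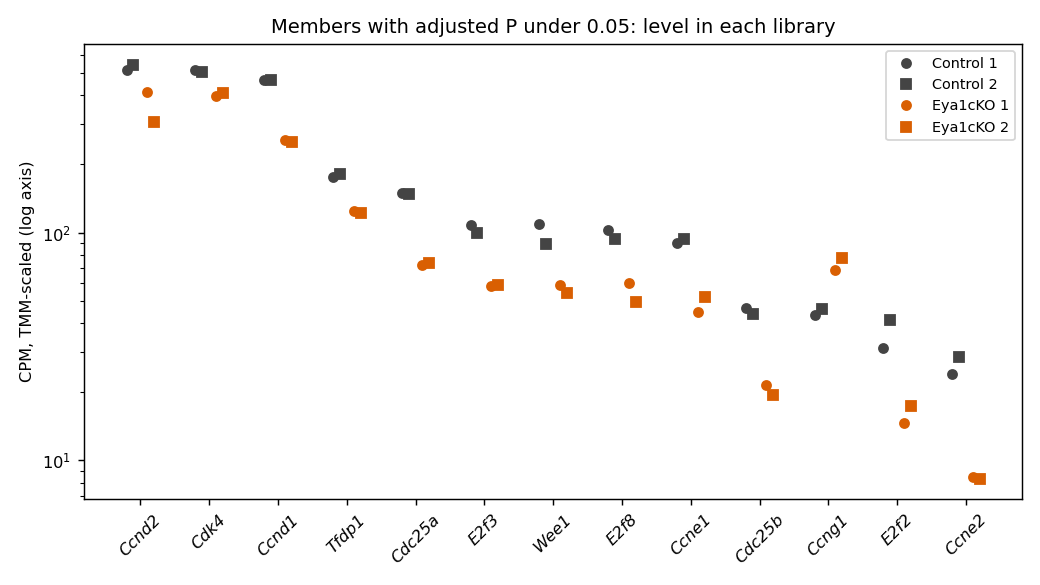
Level in each library, in TMM-scaled CPM on a log axis, of the 13 members with an adjusted *P* under 0.05, ordered by their control level. For 12 genes both *Eya1*cKO libraries lie below both controls, and for *Ccng1* both lie above.

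None of the cyclins of S phase and mitosis passed the threshold in edgeR (2 of the 4 tested had an unadjusted *P* under 0.05), and DESeq2 called 1 of them. *Ccna2*, the somatic A-type cyclin, was at 186 and 187 CPM in the controls against 152 and 147 CPM in *Eya1*cKO. The log2 fold change of -0.32 had a standard error of 0.09 (edgeR adjusted *P* = 0.079). Its groups were apart and its libraries close, and 12.5% of its exonic length lies opposite *Exosc9*. *Ccnb1*, the main partner of Cdk1 in mitosis, had 3164 and 3650 reads in the controls against 1533 and 554 in *Eya1*cKO. In CPM this was 90.6 and 97.5 against 67.8 and 31.6, which is -0.87 ± 0.27 on the log2 scale (± SE, edgeR adjusted *P* = 0.094, 0.030 in DESeq2). The low value came mostly from *Eya1*cKO 2, and leaving out that library gave -0.49, whereas leaving out *Eya1*cKO 1 gave -1.59. *Ccnb2*, the related B-type cyclin, was at 110 and 104 CPM in the controls against 85.2 and 110 CPM in *Eya1*cKO, with overlapping groups (log2 fold change -0.15 ± 0.15 SE). *Ccnf*, an F-box protein of G2 phase, had 2107 and 2278 reads in the controls and 943 and 1052 in the shallower *Eya1*cKO libraries (log2 fold change -0.28 ± 0.19 SE). Its value rested on *Eya1*cKO 1, being -0.026 without that library and -0.55 without *Eya1*cKO 2 (edgeR adjusted *P* = 0.0053). *Ccna1*, the germ-cell A-type cyclin, was not tested, having 22 and 8 reads in the controls against 0 and 0 in *Eya1*cKO. Against the 3 counts that a library with none allows, the level in *Eya1*cKO was lower by at least 2.47-fold from the control mean, by 3.68-fold from control 1 alone and by 1.25-fold from control 2 alone.

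*Ccng1*, an atypical cyclin and a known target of p53, was the member that rose. It lies on chromosome 11 from 40748552 to 40755311. It had 43.7 and 46.3 CPM in the controls against 68.4 and 77.4 CPM in *Eya1*cKO, which is 0.69 ± 0.15 on the log2 scale (± SE, edgeR adjusted *P* = 0.038). It rested on 1525 and 1734 reads in the controls and 1545 and 1357 in *Eya1*cKO. It was above the controls in both *Eya1*cKO libraries but missed the threshold when the low-count filter was dropped, with the legacy method and after thinning (edgeR adjusted *P* between 0.057 and 0.083). Its relative *Ccng2* had 116 and 95.9 CPM in the controls against 83.3 and 69.4 CPM in *Eya1*cKO, which is -0.46 ± 0.16 on the log2 scale (± SE, edgeR adjusted *P* = 0.11). The reads on *Ccng1* were 0.375 and 0.483 times those on *Ccng2* in the controls and 0.820 and 1.12 times in *Eya1*cKO, with no overlap. *Ccno*, a cyclin known for its part in multiciliated cells, had 73 and 26 reads in the controls against 0 and 0 in *Eya1*cKO, or 2.09 and 0.694 CPM against 0 and 0 CPM, at least 8.14-fold lower against the 3-count limit when the control mean is used. The control libraries were unequal, and the bound was 12.2-fold from control 1 alone and 4.06-fold from control 2 alone. Its fitted log2 fold change of -8.27 ± 3.04 (± SE) depends on the prior count and is no bound. It entered the test through the control libraries alone and missed the threshold (edgeR adjusted *P* = 0.14, 0.037 in DESeq2).

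Of the 6 kinase genes, 1 fell and none rose. *Cdk4*, the partner of the D-type cyclins, lies on chromosome 10 from 127063534 to 127067920 and was the member of highest level per kilobase in the controls, at 158 CPM per kilobase. It had 18060 and 18993 reads in the controls against 8951 and 7171 in *Eya1*cKO. In CPM this was 517 and 507 against 396 and 409, which is -0.35 ± 0.07 on the log2 scale (± SE, edgeR adjusted *P* = 0.023), the smallest of the falls that passed. The exons of *Cdk4* lie opposite *Tspan31* over 19.7% of their length. *Cdk6*, which also binds D-type cyclins, was at 41.9 and 38.1 CPM in the controls against 53.4 and 42.5 CPM in *Eya1*cKO (log2 fold change 0.28 ± 0.19 SE, edgeR adjusted *P* = 0.37). It was 0.080 without *Eya1*cKO 1 and 0.40 without *Eya1*cKO 2 (edgeR adjusted *P* = 0.040). *Cdk1*, the mitotic kinase, had 139 and 149 CPM in the controls against 136 and 133 CPM in *Eya1*cKO. Its log2 fold change of -0.10 had a standard error of 0.10, and that of *Cdk2*, the kinase of S phase, was -0.09 with a standard error of 0.13 and overlapping groups. Reads on *Ccnd1* relative to *Cdk4* were 0.907 and 0.921 in the controls and 0.647 and 0.609 in *Eya1*cKO, and those on *Ccne1* relative to *Cdk2* 0.929 and 0.843 against 0.444 and 0.555. Both ratios were lower in each *Eya1*cKO library than in either control. *Cdk7*, the kinase that activates other CDKs, and *Cdk5*, known for its part in neurons, had overlapping groups, with log2 fold changes of -0.17 ± 0.27 (± SE) and 0.20 ± 0.33 (± SE). With single libraries left out, these ran from -0.76 to 0.15 for *Cdk7* and from -0.33 to 0.65 for *Cdk5*.

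None of the 3 inhibitor genes tested, nor *Cdkn3*, passed in edgeR or in DESeq2 (1, *Cdkn1b*, had an unadjusted *P* under 0.05 in edgeR), and each of the 4 had a log2 fold change above 0. *Cdkn1b* encodes p27, a Kip inhibitor of Cdk2, and had 48.7 and 43.9 CPM in the controls against 68.0 and 56.5 CPM in *Eya1*cKO, above both controls (log2 fold change 0.44 ± 0.17 SE, edgeR adjusted *P* = 0.14). It was 0.28 without *Eya1*cKO 1 and 0.54 without *Eya1*cKO 2 (edgeR adjusted *P* = 0.0046). *Cdkn2c*, the INK4 inhibitor p18, had 276 and 237 reads in the controls against 260 and 238 in *Eya1*cKO, which were 7.90 and 6.33 CPM against 11.5 and 13.6 CPM. Its log2 fold change of 0.81 had a standard error of 0.40 (edgeR adjusted *P* = 0.23). *Cdkn2d*, the INK4 inhibitor p19, and *Cdkn3*, a phosphatase that acts on CDKs, had overlapping groups. With single libraries left out, their log2 fold changes ran from -0.035 to 0.44 and from -0.96 to 1.11, so neither kept its sign. For *Cdkn3* the spread lay between the *Eya1*cKO libraries, with 83 reads in *Eya1*cKO 1 and 270 in *Eya1*cKO 2 against 247 and 264 in the controls. *Cdkn2a*, whose locus encodes p16 and the p19Arf protein from separate first exons that a gene count does not separate, had 0 and 7 reads in the controls against 0 and 0 in *Eya1*cKO. *Cdkn2b*, encoding p15, had 0 and 1 reads in the controls against 0 and 6 in *Eya1*cKO, so that a difference in either gene was not detectable at this depth.

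The genes for the enzymes that add and remove the inhibitory phosphate on CDKs lay lower together. *Cdc25a*, the Cdc25 phosphatase of the entry to S phase, lies on chromosome 9 from 109875579 to 109893895. It had 5204 and 5539 reads in the controls against 1621 and 1291 in *Eya1*cKO. Its level of 149 and 148 CPM in the controls against 71.7 and 73.6 CPM in *Eya1*cKO was -1.03 ± 0.11 on the log2 scale (± SE, edgeR adjusted *P* = 0.0034). *Cdc25b*, which acts before mitosis and lies on chromosome 2 from 131186949 to 131198497, had 46.8 and 43.7 CPM in the controls against 21.4 and 19.4 CPM in *Eya1*cKO, which is -1.14 ± 0.21 on the log2 scale (± SE, edgeR adjusted *P* = 0.022). For *Cdc25b* there were 1635 and 1637 reads in the controls and 484 and 341 in *Eya1*cKO. Mean levels in *Eya1*cKO were 48.9% of the control level for *Cdc25a* and 45.1% for *Cdc25b*. *Cdc25c*, the mitotic Cdc25 phosphatase, had 992 and 1332 reads in the controls against 333 and 286 in *Eya1*cKO, or 28.4 and 35.6 CPM against 14.7 and 16.3 CPM. Its log2 fold change was close to theirs, at -1.06 ± 0.28 (± SE), and missed the threshold (edgeR adjusted *P* = 0.059, 0.020 in DESeq2). *Wee1*, the opposing kinase, on chromosome 7 from 110122046 to 110143286, fell as well, from 109 and 89.1 CPM to 58.8 and 54.4 CPM (log2 fold change -0.80 ± 0.16 SE, edgeR adjusted *P* = 0.028). *Wee1* was counted with 3798 and 3335 reads in the controls and 1328 and 955 in *Eya1*cKO. Without the low-count filter its edgeR adjusted *P* was 0.055. Reads on *Cdc25a* relative to *Wee1* were 1.37 and 1.66 in the controls and 1.22 and 1.35 in *Eya1*cKO, so that the ratio in *Eya1*cKO 2 was only just below that in control 1. As a share of the summed Cdc25 level per kilobase, *Cdc25a* made up 50.3% and 49.3% in the controls and 50.6% and 51.8% in *Eya1*cKO, and *Cdc25c* 15.6% and 19.3% against 16.9% and 18.7%. The exons of *Cdc25c* lie opposite another gene over 12.7% of their length. *Cks1b* and *Cks2*, small proteins that bind CDKs and help them reach their substrates, lay below the controls with log2 fold changes of -0.34 ± 0.14 (± SE) and -0.31 ± 0.23 (± SE) that did not pass. That of *Cks2* was -0.50 without control 1 and -0.13 without control 2. *Skp2*, the F-box protein that marks p27 for degradation, was listed at 0 in all 4 libraries, and whether its reads were lost in the annotation or the counting was not tested.

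**Figure D4:**
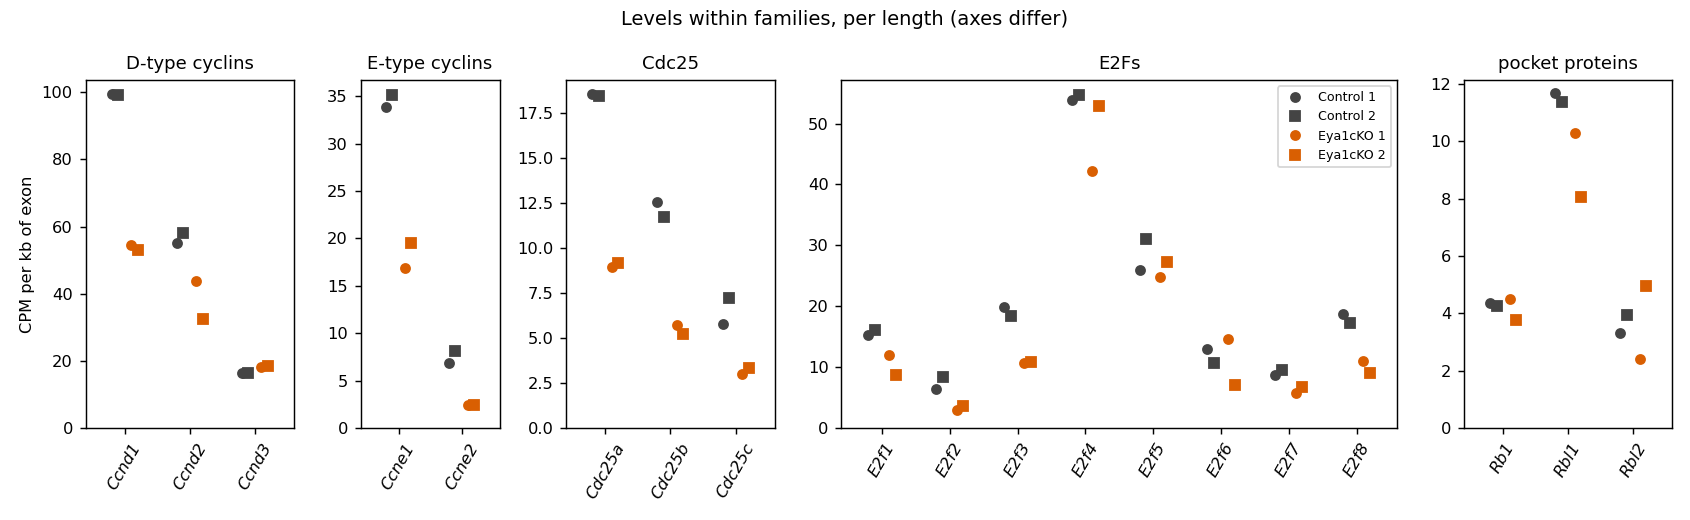
Level of each gene in each library as CPM per kilobase of exon, by family, with a separate linear axis starting at 0 for each panel. Control libraries are grey and *Eya1*cKO libraries orange. *Ccnd1* stands at about 99 in the controls and 53-54 in *Eya1*cKO, while *Ccnd3*, *E2f5* and *Rb1* lie at similar heights in both genotypes.

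Of the 8 E2F genes, 3 fell, the activators *E2f2* and *E2f3* and the repressor *E2f8*. *E2f3*, on chromosome 13 from 29906575 to 29986063, had 108 and 100 CPM in the controls against 58.0 and 58.8 CPM in *Eya1*cKO, which is -0.83 ± 0.13 on the log2 scale (± SE, edgeR adjusted *P* = 0.013). The *E2f3* values stand on 3773 and 3746 reads in the controls and 1311 and 1031 in *Eya1*cKO. *E2f2*, at 136172394 to 136196057 of chromosome 4, had 1083 and 1545 reads in the controls against 331 and 305 in *Eya1*cKO, or 31.0 and 41.3 CPM against 14.6 and 17.4 CPM. Its log2 fold change of -1.19 had a standard error of 0.29 and an adjusted *P* of 0.046 in edgeR, which rose to between 0.052 and 0.086 with library totals alone, without the low-count filter, with the legacy method and after thinning. *E2f1*, the third activator, had 48.1 and 50.6 CPM in the controls against 37.9 and 27.6 CPM in *Eya1*cKO. The log2 fold change of -0.57 ± 0.21 (± SE) did not pass (edgeR adjusted *P* = 0.13), and it was -0.85 without *Eya1*cKO 1 (edgeR adjusted *P* = 0.0010) and -0.40 without *Eya1*cKO 2. *E2f8*, an atypical repressor on chromosome 7 from 48866429 to 48881596, fell from 102 and 94.0 CPM to 60.2 and 49.6 CPM (log2 fold change -0.82 ± 0.15 SE, edgeR adjusted *P* = 0.020), and 11.2% of its exonic length lies opposite another gene. Behind the *E2f8* levels were 3572 and 3521 reads in the controls and 1361 and 870 in *Eya1*cKO. The related *E2f7* had 78.5 and 85.6 CPM in the controls against 52.5 and 60.4 CPM in *Eya1*cKO, just short of the threshold (log2 fold change -0.55 ± 0.15 SE, edgeR adjusted *P* = 0.065). The repressors that work with pocket proteins in resting cells, *E2f4* and *E2f5*, and *E2f6*, which works with Polycomb proteins, had log2 fold changes of -0.20, -0.14 and -0.07, none past the threshold. For *E2f4* the value was -0.049 without *Eya1*cKO 1 and -0.38 without *Eya1*cKO 2 (edgeR adjusted *P* = 0.0046). *E2f4* had the highest level of the 8 E2F genes per kilobase in each library, at 33.3% and 32.9% of their sum in the controls and 34.0% and 41.9% in *Eya1*cKO, while *E2f3* made up 12.3% and 11.1% against 8.60% and 8.58%. Reads on *E2f3* relative to *E2f4* were 0.818 and 0.747 in the controls and 0.560 and 0.453 in *Eya1*cKO.

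*Tfdp1* encodes DP1, the partner with which E2F proteins other than the atypical E2F7 and E2F8 bind DNA, and fell as well. It lies on chromosome 8 from 13338751 to 13378448. It had 6095 and 6785 reads in the controls against 2821 and 2133 in *Eya1*cKO. In CPM this was 175 and 181 against 125 and 122, which is -0.53 ± 0.10 on the log2 scale (± SE, edgeR adjusted *P* = 0.021). *Tfdp2*, its relative, had overlapping groups and a log2 fold change of -0.15 ± 0.14 (± SE). *Tfdp1* made up 85.9% and 88.0% of the DP level per kilobase in the controls and 84.5% and 82.8% in *Eya1*cKO. With all 4 libraries none of the pocket protein genes passed in edgeR or DESeq2, and none had an unadjusted *P* under 0.05 in edgeR. *Rb1*, the retinoblastoma gene, had 26.3 and 25.6 CPM in the controls against 27.1 and 22.6 CPM in *Eya1*cKO (log2 fold change -0.05 ± 0.24 SE). Other genes lie opposite 14.9% of the exonic length of *Rb1* and 21% of that of *Rbl2*. *Rbl1*, encoding p107, was lower in both *Eya1*cKO libraries, with 61.8 and 48.3 CPM against 70.1 and 68.2 CPM in the controls (log2 fold change -0.31 ± 0.16 SE, edgeR adjusted *P* = 0.26). It was -0.53 without *Eya1*cKO 1 (edgeR adjusted *P* = 0.0068) and -0.18 without *Eya1*cKO 2. *Rbl2*, encoding p130, had the *Eya1*cKO libraries on either side of the controls, at 18.2 and 37.4 CPM around 24.9 and 29.9 CPM, and *Mybl2*, a late-cycle transcription factor that E2F proteins control, overlapped between genotypes with a log2 fold change of -0.19 ± 0.19 (± SE).

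Of 30 further genes of the cell cycle, 11 fell and 1 rose in edgeR, which is 36.7% and 3.33%. Of all genes tested, 4.41% fell and 5.15% rose. The 30 were chosen for their role with earlier results of these data known, so the shares only describe the list. The count that fell was 5 with the replicate block and 0 in edgeR without control 1 or without control 2, where 11 had an unadjusted *P* under 0.05 in each case, and it was 17 without *Eya1*cKO 1 and 18 without *Eya1*cKO 2. The genes that fell were *Fbxo5*, *Cdc6*, *Rrm2*, *Pcna*, *Plk1*, *Top2a*, *Aurkb*, *Mcm2*, *Cul1*, *Rbbp4* and *Mki67*, with log2 fold changes from -1.09 for *Fbxo5*, an inhibitor of the anaphase-promoting complex, to -0.40 for *Mki67*, a marker of dividing cells. Of the genes with a part in DNA replication, *Rrm2*, a subunit of ribonucleotide reductase, was at -0.90 (edgeR adjusted *P* = 0.0054) and *Pcna*, the replication clamp, at -0.82 (edgeR adjusted *P* = 0.0078). *Cdc6*, which loads the replicative helicase, was at -1.04 (edgeR adjusted *P* = 0.031) and *Mcm2*, a subunit of that helicase, at -0.54 (edgeR adjusted *P* = 0.014). *Cdt1*, which loads the helicase with Cdc6, missed the threshold at -0.82 (edgeR adjusted *P* = 0.12), with 37.2 and 82.1 CPM in *Eya1*cKO, and *Gmnn*, the inhibitor of Cdt1, overlapped between genotypes at -0.13 (edgeR adjusted *P* = 0.72). Of the genes with a part in mitosis, the kinases *Plk1* and *Aurkb* fell, at -0.79 (edgeR adjusted *P* = 0.011) and -0.64 (edgeR adjusted *P* = 0.028), as did *Top2a*, a topoisomerase, at -0.67 (edgeR adjusted *P* = 0.0021). The kinase *Aurka*, *Foxm1*, a transcription factor of the mitotic genes, and *Cdc20*, an activator of the anaphase-promoting complex, missed the threshold at -0.38, -0.39 and -0.45 (edgeR adjusted *P* = 0.28, 0.085 and 0.089). Of the genes for the other subunits of the kinase complex with Cdk7, *Ccnh* had a log2 fold change of -0.06 and *Mnat1* of 0.27, neither past the threshold. *Cdkn1c*, the Kip inhibitor p57, was the one that rose. Its change was 1.54 ± 0.06 on the log2 scale (± SE, edgeR adjusted *P* = 8.5e-05), and reads on its overlapping antisense gene cannot be told apart. *Cdk5r2* had a larger rise that missed the threshold, at 2.90 ± 0.82 (± SE, edgeR adjusted *P* = 0.067). It rested on 17 and 17 reads in the controls against 102 and 40 in *Eya1*cKO. With at least 10 counts asked of every library, 2 of the 30 rose.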

How the data were processed

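Per the methods and labels, the authors mapped single-end reads of strand-specific SMARTer libraries to mm10 with HISAT2 and counted them with HTSeq-count on Ensembl 90 genes, and the deposited values are raw counts per gene without normalization. Other versions and the strand setting are not given in the sources used here. The summary rows that name no gene (32.4% and 31.8% of all recorded reads for the controls, 46.1% and 44.2% for *Eya1*cKO) were left out of totals and tests.

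The tests used edgeR 4.0.16 under R 4.3.3 (filterByExpr with a minimum count of 10, TMM scaling, glmQLFit and glmQLFTest with legacy = FALSE, genotype as the factor) with Benjamini-Hochberg adjustment at 0.05 over all genes tested. The standard error (SE) of a log2 fold change was taken as its size divided by the root of the F statistic. The groups were those of the labels, 2 libraries each, and for a single value 2 against 2 permits no two-sided exact permutation *P* below 0.333. CPM are counts over TMM-scaled totals, and the limit of 3 counts was 0.0801 to 0.171 CPM and covers counting error only. DESeq2 1.42.0 and the other alternatives are given in the closing section. Coordinates, exonic lengths and exon overlaps came from GENCODE M21 (GRCm38, the build of mm10, but a later annotation than the one counted on). Promoters came from RefSeq, GRCm38.p6. The test was tried on simulated counts first. The members, the marker lists and the further cell-cycle genes were chosen with earlier results of these data known. All members are reported: those past the threshold, and those with groups apart and an absolute log2 fold change over 1, with the reads and CPM of each library, the fold change, its SE and the adjusted *P*, and the rest more briefly. Replicates differed by more than sampling noise in both genotypes.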

Additional observations from a re-analysis of the deposited data

How the results depend on the processing

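The genes called numbered 1820 in all, and 1055 without the low-count filter, 2734 with DESeq2's Wald test, 1096 with the legacy quasi-likelihood method, 1193 after thinning every library to the smallest total and 621 with the replicate block. The 12 members that fell numbered 9 to 15 under the alternatives run on all 4 libraries, except the block, with 2. The 1 that rose was 0 without the filter, with the legacy method, after thinning and with the block. Leaving out each library in turn gave from 23 to 7925 genes called, from 0 to 22 members that fell and from 0 to 4 that rose, with the lone library of a genotype assumed to vary like the pair that was left. The calls were lost without either control (23 genes each) and were most numerous without either *Eya1*cKO library. The replicate numbers of the labels were not shown to pair the libraries, since the deviations of same-numbered libraries correlated at 0.0091 over genes. The sign of 9 members that were not called depended on the setting. *Rbl2* had log2 fold changes of 8e-04 with library totals alone, 0.033 with DESeq2, 0.020 with the legacy method and 0.034 after thinning. With single libraries left out the range was -0.61 to 0.43 for *Rbl2*, -0.74 to 0.30 for *E2f6*, -0.34 to 0.029 for *Ccnb2*, -0.41 to 0.014 for *Mybl2*, -0.33 to 0.65 for *Cdk5*, -0.76 to 0.15 for *Cdk7*, -0.035 to 0.44 for *Cdkn2d*, -0.96 to 1.11 for *Cdkn3* and -0.21 to 0.046 for *Rb1*. Without *Eya1*cKO 1, 4 of these passed in edgeR, *Cdkn3* at 1.11 (adjusted *P* = 0.0085), *Cdk5* at 0.65 (0.013), *Cdk7* at -0.76 (0.0038) and *E2f6* at -0.74 (0.0017), and without *Eya1*cKO 2, 3 passed, *Ccnb2* at -0.34 (0.017), *Rbl2* at -0.61 (0.040) and *Mybl2* at -0.41 (0.040). Of the members not called that kept their sign, *Ccna2*, *Ccnb1*, *Ccng2*, *Cdc25c* and *E2f7* passed without either *Eya1*cKO library, *E2f1*, *Rbl1*, *Cks1b* (-0.43, adjusted *P* = 0.013) and *Cdkn2c* (0.92, 0.036) without *Eya1*cKO 1 alone, and *Ccnf*, *E2f4*, *Cdk6* and *Cdkn1b* without *Eya1*cKO 2 alone. The causes of these changes were not tested.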

Other observations

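The *Eya1*cKO libraries differed from each other more often than the controls did. Of the 42 tested members, 6 differed by more than 1.5-fold between *Eya1*cKO 1 and *Eya1*cKO 2, and 1, *Ccno*, did so between the controls, where 43.9% and 14.2% of all genes tested did. *Ccnb1* (67.8 and 31.6 CPM), *Cdk7* (52.6 and 27.8 CPM) and *E2f6* (82.8 and 40.2 CPM) were higher in *Eya1*cKO 1. *Cdkn3* (3.67 and 15.4 CPM), *Cdk5* (19.1 and 37.4 CPM) and *Rbl2* (18.2 and 37.4 CPM) were higher in *Eya1*cKO 2. None of these 6 was called in edgeR with all 4 libraries.

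*Skp2*, on chromosome 15 from 9111985 to 9155425, was listed at 0 in every library, whereas the genes for the proteins it works with were well counted. *Skp1a* had 9306 and 9634 reads in the controls against 5317 and 4703 in *Eya1*cKO, *Cul1* had 6977 and 7327 against 3334 and 2333, and *Cks1b* had 3120 and 3082 against 1593 and 1125. Whether its reads were lost in the annotation or the counting was not tested, so the 0 is not given as a level of the transcript.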
